A study of Oncorhynchus mykiss with 12 samples.

Results

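The liver macrophage receptor genes described here are 23 of the 42128 loci in the RNA-seq table of rainbow trout (Oncorhynchus mykiss) liver. They were picked by a naming rule, with the names themselves chosen when earlier results of these data were known: a symbol equal to Marco, csf1r, mrc1, mpeg1, timd4, spi1 or cd68, with an optional paralog suffix, or a description that begins with the name of the macrophage receptor MARCO, the colony-stimulating factor 1 receptor or the macrophage mannose receptor 1. The rule found 2 Marco loci, 2 csf1r loci, 14 mrc1 loci, 1 mpeg1 locus and 4 spi1 loci, with 0 loci for timd4 and 0 for cd68. The hypoxia group was wild-type trout held for 1 month at 4.5 ± 0.1 mg/L dissolved oxygen, and the control group was wild-type trout without that exposure. Each group had 3 RNA-seq libraries of liver tissue. The labels give neither age nor sex and do not say whether a library came from 1 fish or a pool, so the p-values reflect the spread among these libraries, which may be technical.

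In mammals, macrophages of the liver take up particles, microbes and dying cells from the blood. Their survival there depends on the receptor encoded by CSF1R, which binds CSF1 and interleukin 34. Their identity depends on the transcription factor PU.1, encoded by SPI1. MARCO is a scavenger receptor with a collagen-like stalk that binds bacteria and particles, the mannose receptor MRC1 is a lectin that clears glycoproteins, and MPEG1 (perforin-2) forms pores in engulfed microbes. SPI1 and MPEG1 are therefore not receptors, although the rule takes them in.

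The 6 libraries held 19060468 to 23152833 counts. Levels are given in the authors' FPKM, which are scaled for gene length and library size and so can be compared between genes. At some loci FPKM per count also varied between libraries. Each fold change is the log2 ratio of hypoxia to control, estimated by edgeR on all 19365 genes with a mean of at least 0.5 FPKM, and a gene was called at an adjusted p under 0.05. Hepatocyte genes summed to 61146 to 67803 FPKM in hypoxia and 60806 to 63279 FPKM in control libraries, in keeping with the labelled tissue. Control replicate 1 stood apart: the leading principal component (45.6% of variance) put it at -7.34, the other controls at -32.8 and -31.5 and the hypoxia libraries at 18.4 to 27.1.

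Of the 23 loci, 8 passed the filter on low values and 15 did not. A single locus, Marco, changed, and it fell in hypoxia. The count was thus 1 lower and 0 higher of 8 tested loci, where 7.22% of all genes tested were called, 3.39% lower and 3.83% higher. Within the rule, the tested loci of csf1r, mpeg1, spi1 and mrc1 did not pass the threshold, with edgeR adjusted p of 0.483 to 0.975 over the other 7 loci. The median log2 fold change of the 8 loci was -0.18, against -0.0046 over all genes tested.

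The scavenger receptor locus Marco (NCBI gene 110501689, described as macrophage receptor MARCO) measured 1.62, 1.17 and 1.37 FPKM in the hypoxia libraries and 3.85, 2.92 and 3.64 FPKM in the control libraries. The highest hypoxia library lay below the lowest control library, so the groups did not overlap. Behind these levels stood 62, 46 and 51 counts in hypoxia and 146, 126 and 166 counts in control. Marco averaged 1.38 ± 0.224 FPKM in hypoxia and 3.47 ± 0.489 FPKM in control (SD, n = 3 each). The log2 fold change was -1.35 (SE 0.19, 95% interval -1.77 to -0.93), which is 2.55-fold lower in hypoxia, with an edgeR adjusted p of 0.00793. By fold change it was number 69 among the 657 genes that fell. In whole liver, fewer cells of a type and less RNA per cell cannot be told apart.

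The authors' deposited table gives Marco a log2 fold change of -1.33 with an adjusted p of 5.41e-05. Without control replicate 1 the fold change was -1.30 (edgeR adjusted p = 0.00514), and the largest edgeR adjusted p in any fit without 1 library was 0.0348. In an exact two-sided permutation test of its log2 levels p was 0.1, the smallest that 3 against 3 libraries can give. That value follows from the lack of overlap between the groups and adds nothing to it.

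The other locus of the same receptor did not pass the test. It is marco (110520391), described as macrophage receptor with collagenous structure, and it is the locus that carries the symbol marco in the reference gene table. It measured 1.04, 0.658 and 1.05 FPKM in hypoxia and 1.49, 0.712 and 0.92 FPKM in control. The groups overlapped, and the highest value was that of control replicate 1. The log2 fold change was -0.20 (SE 0.29, 95% interval -0.85 to 0.45, edgeR adjusted p = 0.73), and 0.10 without control replicate 1. The ratio of Marco to marco was 1.56, 1.78 and 1.30 in the hypoxia libraries and 2.58, 4.10 and 3.96 in the control libraries. These ratios did not overlap. Summed over both loci, the receptor stood at 2.66, 1.83 and 2.42 FPKM in hypoxia and 5.34, 3.63 and 4.56 FPKM in control. The sums did not overlap either, but they hold the Marco values and restate its fall in part. They take in reads divided between these 2 loci, but not reads left uncounted or placed elsewhere.

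**Figure D1:**
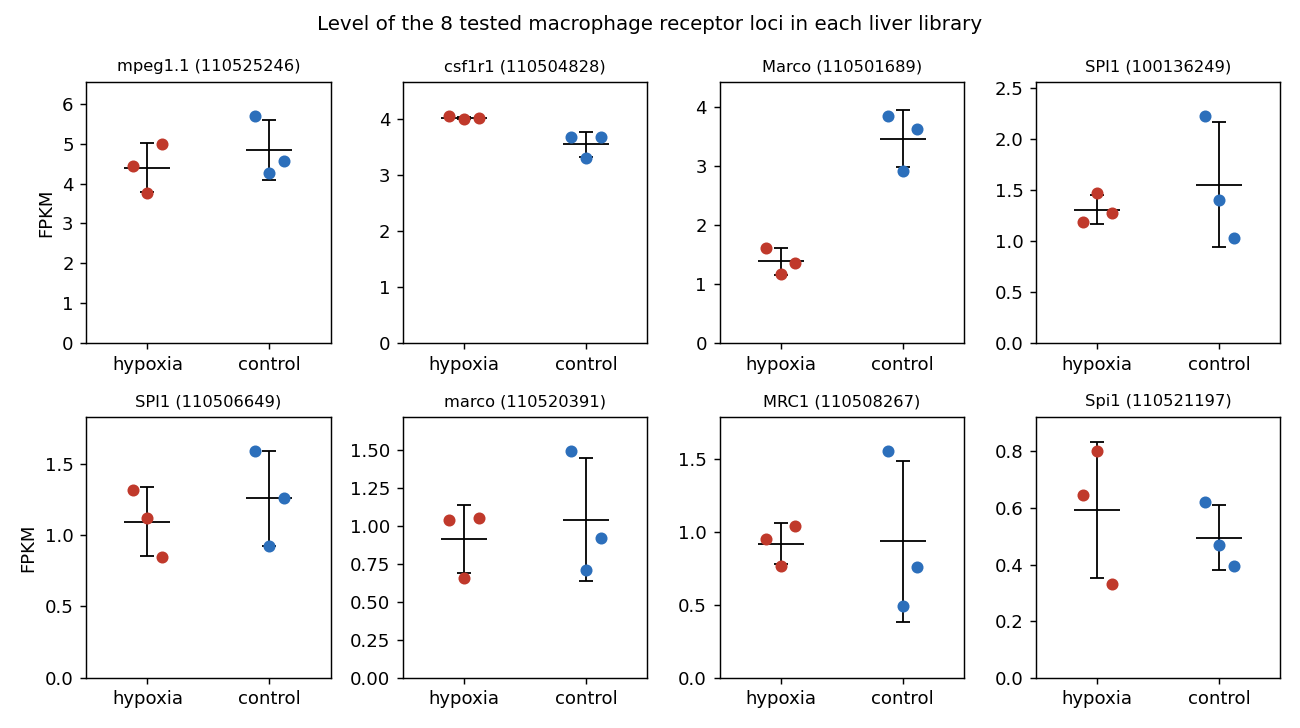
FPKM (vertical axis, from 0) of the 8 tested loci in the 3 hypoxia and 3 control libraries. Points are libraries, the long bar is the mean and the whisker is 1 SD. Marco lies at 1.17 to 1.62 FPKM in hypoxia and 2.92 to 3.85 FPKM in control, and csf1r1 lies slightly higher in all hypoxia libraries, while the groups of the other 6 loci overlap.

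The receptor for CSF1 and interleukin 34 had closely spaced values at its most abundant locus within the rule. The locus csf1r1 (110504828) measured 4.05, 4.01 and 4.02 FPKM in hypoxia and 3.68, 3.30 and 3.69 FPKM in control, from 362 to 436 counts per library. All hypoxia libraries lay above all control libraries by a small margin. The log2 fold change was 0.16 (SE 0.13, 95% interval -0.12 to 0.43, edgeR adjusted p = 0.483). Marco and csf1r1 were the 2 of 8 tested loci whose groups did not overlap, as did 27.0% of all genes tested. In the hypoxia-lower direction, where Marco lies, that share was 13.1%, and in the hypoxia-higher direction, where csf1r1 lies, it was 13.9%.

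The second csf1r1 locus, 110534179, had a mean of 0.409 FPKM, below the filter. It held 48, 38 and 32 counts in hypoxia and 42, 29 and 37 counts in control, and the groups overlapped. Summed over both loci of the rule, csf1r stood at 4.59, 4.43 and 4.39 FPKM in hypoxia and 4.15, 3.59 and 4.04 FPKM in control. As with Marco these sums did not overlap, but here hypoxia was the higher. A further pair of loci carry the symbol csf1r1, but their descriptions are worded differently. Neither the rule nor this sum takes them in, so the sum is not the whole csf1r1 level. Of these, csf1r1 100136949 averaged 0.906 ± 0.0339 FPKM in hypoxia and 0.778 ± 0.189 FPKM in control (SD, n = 3 each), with a log2 fold change of 0.21 (SE 0.21, edgeR adjusted p = 0.59). The other, csf1r1 100136950, had a mean of 4.00 FPKM over all libraries, above the 3.79 FPKM of 110504828. It held fewer counts than 110504828, at 109, 53 and 92 in hypoxia and 61, 118 and 125 in control. It averaged 3.89 ± 1.27 FPKM in hypoxia and 4.11 ± 1.04 FPKM in control (SD, n = 3 each), with a log2 fold change of -0.14 (SE 0.29, edgeR adjusted p = 0.816). It measured 4.84, 2.45 and 4.39 FPKM in hypoxia and 2.91, 4.74 and 4.68 FPKM in control, so its groups overlapped.

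The ligands of that receptor, given for their role and not by the naming rule, were low. Interleukin 34 had 2 loci with measurable levels, and neither passed. The locus 110520098 averaged 1.16 ± 0.225 FPKM in hypoxia and 0.873 ± 0.0901 FPKM in control (SD, n = 3 each), a log2 fold change of 0.40 (SE 0.19, edgeR adjusted p = 0.234). The locus il34 (100873160) had a log2 fold change of 0.57 (SE 0.38, edgeR adjusted p = 0.405). The CSF1 loci csf1 and csf1-2 had means of 0.183 and 0.067 FPKM, below the filter, and csf1a was listed at 0 in all 6 libraries.

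The pore-forming gene mpeg1.1 (110525246) was the most abundant of the 23 loci. It measured 4.45, 3.76 and 4.99 FPKM in hypoxia and 5.69, 4.28 and 4.57 FPKM in control, from 199 to 291 counts per library. The groups overlapped, with the highest value in control replicate 1. The log2 fold change was -0.16 (SE 0.15, 95% interval -0.49 to 0.16, edgeR adjusted p = 0.555), and -0.0682 and -0.0808 without control replicate 1 and hypoxia replicate 2.

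The genes whose log2 levels ran most nearly parallel to mpeg1.1 over the 6 libraries were nup188 (Pearson r 0.994), a nuclear pore gene, odc1-a (0.991), the first enzyme of polyamine synthesis, RNF19A (0.991), STRADB (0.991) and klhl21 (0.989). In each of the 5, as in mpeg1.1, control replicate 1 had the highest level and hypoxia replicate 2 the lowest. The 6 libraries share these differences, and 52 of the 18102 genes compared had an r above 0.95, so the likeness is a description only.

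The transcription factor PU.1 was tested at 3 spi1 loci, and none passed. SPI1 (100136249) measured 1.19, 1.47 and 1.27 FPKM in hypoxia and 2.23, 1.41 and 1.03 FPKM in control. The controls were more widely spread, and their range enclosed that of the hypoxia libraries. Behind these levels stood 42, 42 and 44 counts in hypoxia and 66, 53 and 42 counts in control. At this locus FPKM per count, relative to the library's typical value, ran from 0.912 to 1.166 of its mean. The log2 fold change was -0.22 (SE 0.27, 95% interval -0.81 to 0.36, edgeR adjusted p = 0.661), and 0.0007 without control replicate 1.

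SPI1 (110506649) measured 1.32, 1.12 and 0.846 FPKM in hypoxia and 1.59, 0.926 and 1.26 FPKM in control. Its groups overlapped, at a log2 fold change of -0.21 (SE 0.25, 95% interval -0.75 to 0.33, edgeR adjusted p = 0.658), and of -0.0482, -0.0468 and -0.37 without control replicate 1, hypoxia replicate 3 and control replicate 2. Spi1 (110521197) measured 0.645, 0.801 and 0.331 FPKM in hypoxia and 0.622, 0.469 and 0.395 FPKM in control, so that the hypoxia libraries held both its highest and its lowest value. Its log2 fold change was 0.26 (SE 0.42) with a wide 95% interval of -0.65 to 1.17 (edgeR adjusted p = 0.754), from 11 to 28 counts per library. The locus spi1a had 5, 11 and 3 counts in hypoxia and 0, 5 and 6 counts in control and was below the filter. Summed over the 4 loci, spi1 stood at 3.34, 3.79 and 2.58 FPKM in hypoxia and 4.44, 2.99 and 2.90 FPKM in control, and the sums overlapped.

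The mannose receptor was the family with the most loci and the lowest level per locus. Of its 14 loci 1 was tested, MRC1 (110508267), with 0.95, 0.766 and 1.04 FPKM in hypoxia and 1.56, 0.49 and 0.76 FPKM in control. Its control libraries held both the highest and the lowest value. The log2 fold change was -0.03 (SE 0.33, 95% interval -0.76 to 0.70, edgeR adjusted p = 0.975). Without control replicate 1, which held the highest value, it was 0.49 (edgeR adjusted p = 0.263). Summed over all 14 loci, the receptor stood at 1.48, 1.60 and 1.77 FPKM in hypoxia and 2.48, 1.23 and 1.70 FPKM in control, and the sums overlapped.

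The other 13 mannose receptor loci were below the filter. MRC1 110489949 held 25, 41 and 35 counts in hypoxia and 52, 40 and 49 counts in control. MRC1 110489948 held 13, 21 and 5 counts in hypoxia and 27, 17 and 40 counts in control. This pair of loci are neighbouring genes in the reference assembly USDA_OmykA_1.1, as are MRC1 110508265 and MRC1 110508267, and the division of reads between such copies is uncertain. The remaining 11 loci had at most 10 counts in any library, and 4 of them had none in all 6. Some of these carry symbols of other proteins (BCAN, SELE, pxn1), and locus 110496930 has the symbol Mrc1 but is described as a C-type lectin domain family 6 member A-like gene. With no filter on low values, 19 of the 23 loci were tested and 1 was called, Marco (edgeR adjusted p = 0.000297).

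TIMD4, a receptor for dying cells that marks resident macrophages in mice, had no locus by symbol. Outside the rule, 3 loci with the symbol HAVCR1 are described as TIMD4 or TIMD4-like, and none reached the filter. The most abundant, 110537806, had 5, 7 and 2 counts in hypoxia and 9, 14 and 16 counts in control. Its groups did not overlap, as for 13.1% of all genes tested in the hypoxia-lower direction, and no test of it is given. That share covers only genes that reached the filter, which this locus did not.

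**Figure D2:**
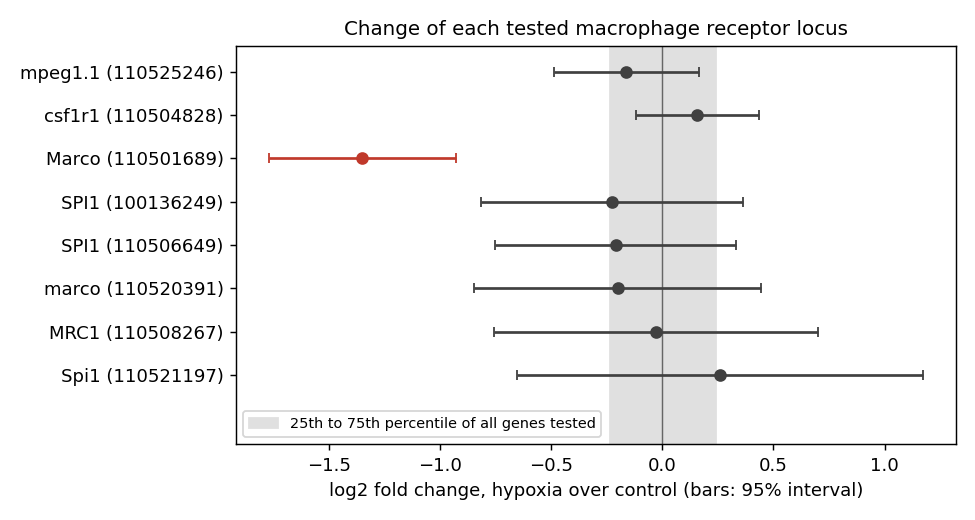
Log2 fold change of hypoxia over control (horizontal axis) for the 8 tested loci, ordered from the highest to the lowest mean FPKM, with 95% intervals from edgeR. The grey band runs from the 25th to the 75th percentile of all genes tested, and Marco at -1.35 (red) is the single locus whose interval excludes 0.

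The order of levels placed Marco differently in the 2 groups. In hypoxia mpeg1.1 (4.40 ± 0.617 FPKM) and csf1r1 (4.03 ± 0.0233 FPKM) led with overlapping ranges. Marco followed at 1.38 ± 0.224 FPKM, with a range that overlapped that of SPI1 100136249 at 1.31 ± 0.146 FPKM. In control mpeg1.1 (4.85 ± 0.745 FPKM) led, above csf1r1 (3.55 ± 0.221 FPKM) and Marco (3.47 ± 0.489 FPKM), whose ranges overlapped. SPI1 100136249 came next at 1.56 ± 0.609 FPKM (SD, n = 3 for each value). The lower places, held by SPI1 110506649, marco, MRC1 and Spi1, overlapped with their neighbours in both groups. Control replicate 1 had the highest value of 6 of the 8 tested loci, Marco included.

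Within each library, Marco was set beside the other tested loci, as a description, since it was taken as the numerator after its fall was seen. The ratio of Marco to csf1r1 was 0.399, 0.292 and 0.34 in hypoxia and 1.05, 0.885 and 0.989 in control. The ratio to mpeg1.1 was 0.363, 0.312 and 0.274 in hypoxia and 0.677, 0.682 and 0.797 in control. For all 7 other loci the hypoxia ratios lay below the control ratios. On the log2(FPKM + 0.5) scale the differences between group means ran from -1.24 for csf1r1 to -0.93 for SPI1 100136249, while Marco alone differed by -1.07. The 7 ratios share the Marco values, restate its fall in part and are not independent of each other, so no test of them is given.

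**Figure D3:**
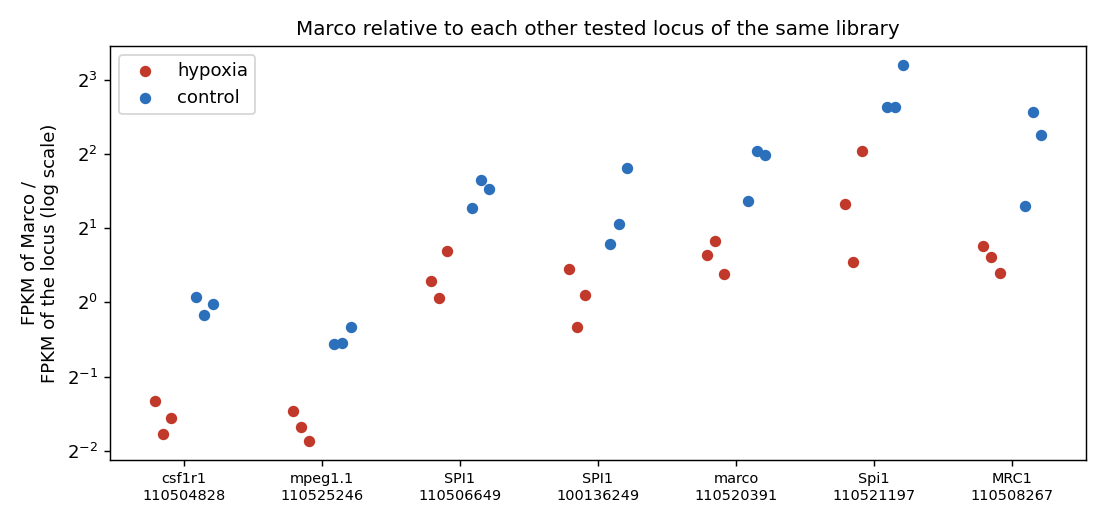
FPKM of Marco (110501689) divided by the FPKM of each of the other 7 tested loci in the same library (vertical axis, log scale), with 3 hypoxia libraries left of 3 control libraries for each locus. The hypoxia points lie below the control points for every locus, for example at 0.292 to 0.399 in hypoxia and 0.885 to 1.05 in control for csf1r1.

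Other genes of phagocytes were counted in 6 lists. Of 107 distinct genes tested in them, 6 fell and 1 rose, where 3.39% of all genes tested were called lower and 3.83% higher, so the share called was near that of all genes. The number called was 2, 1 and 2 without hypoxia replicates 1, 2 and 3, and 15, 3 and 1 without control replicates 1, 2 and 3. Over all genes tested it moved from 1398 to 361, 472 and 432, and to 2186, 473 and 496, in the same fits. Signalling genes below CSF1R and its ligands had 0 of 16 called, with a median log2 fold change of 0.21. The most abundant, plcg2, a phospholipase used by immune receptors, stood at 6.41 ± 0.292 FPKM in hypoxia and 5.43 ± 1.64 FPKM in control (SD, n = 3 each), with an edgeR adjusted p of 0.456, and of 0.0399 without control replicate 1. The phagocyte oxidase and integrin list had 0 of 14 called (median 0.005), and its most abundant gene lcp1, the leukocyte actin bundler plastin-2, stood at 0.35 (SE 0.13, edgeR adjusted p = 0.138). Of 15 tested myeloid transcription factors 1 fell, Nr1h3, the oxysterol receptor LXR-alpha, which hepatocytes also use. It averaged 1.96 ± 0.0785 FPKM in hypoxia and 2.97 ± 0.303 FPKM in control (SD, n = 3 each, log2 fold change -0.58, edgeR adjusted p = 0.0299), and it was called without control replicate 1 but not without any 1 of the other 5 libraries (adjusted p of 0.0757 to 0.117), nor with limma on log2 FPKM (adjusted p of 0.063 to 0.0634). Another tested locus, nr1h3 100286817, was not called (-0.16, edgeR adjusted p = 0.506).

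Of 28 tested phagosome and lysosome genes 4 fell and 0 rose, which is 14.3% called beside 7.22% of all genes tested (3.39% called lower), and the median log2 fold change was -0.30. The number lower was 2, 1 and 2 without hypoxia replicates 1, 2 and 3, and 8, 3 and 1 without control replicates 1, 2 and 3. Over all genes tested the number lower also moved, from 657 to 127, 167 and 203, and to 1056, 205 and 230, in the same fits. LIPA (110498985), the lysosomal acid lipase, averaged 7.58 ± 0.556 FPKM in hypoxia and 13.1 ± 0.846 FPKM in control (SD, n = 3 each). Its log2 fold change was -0.81 (SE 0.13, edgeR adjusted p = 0.00882), and it was called in all 6 fits without 1 library. LAMP1 (110527165), a lysosomal membrane protein, fell by 0.67 on the log2 scale (edgeR adjusted p = 0.0182, limma adjusted p of 0.0463 to 0.0501), with adjusted p of 0.0821, 0.0524 and 0.0579 without hypoxia replicate 2, hypoxia replicate 3 and control replicate 3. The protease cathepsin D (ctsd, 100136761) fell by 0.69 (edgeR adjusted p = 0.0227), with adjusted p of 0.099, 0.0918 and 0.0694 without hypoxia replicate 1, hypoxia replicate 2 and control replicate 3. A second cathepsin D locus (118936249), named after its value was seen, fell by 0.53 (edgeR adjusted p = 0.0323). The other tested cathepsin D loci, 110486128 (-0.16, edgeR adjusted p = 0.614) and 110538020 (-1.01, edgeR adjusted p = 0.362), were not called. Nor were the other tested LAMP1 loci, 110513718 (-0.69), 110520557 (-0.43) and 110501332 (-0.25), with edgeR adjusted p of 0.056, 0.056 and 0.609. Most cell types, hepatocytes included, express these genes.

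Of 24 tested scavenger and apoptotic-cell receptors other than the 23 loci, 1 fell and 0 rose (median -0.20). That is 4.17% called, beside 7.22% of all genes tested. The gene that fell was cd209 (100136662), a C-type lectin, at 148, 139 and 147 FPKM in hypoxia and 180.1, 355 and 278 FPKM in control. The groups did not overlap, and the controls were widely spread. Its log2 fold change was -0.94 (SE 0.22, edgeR adjusted p = 0.0288), and -1.19 without control replicate 1, its lowest control (adjusted p = 0.000967). Without any 1 of the other 5 libraries the edgeR adjusted p was 0.0785 to 0.106, and with limma on log2 FPKM it was 0.0598 to 0.0629. That list had 3 lower and 1 higher without control replicate 1. In it, CD209 110489499 (-0.39, edgeR adjusted p = 0.156) and Cd209a 110533211 (0.09, edgeR adjusted p = 0.78) were tested and not called.

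In the list of macrophage cytokines and activation enzymes 1 of 10 tested genes rose and 0 fell (median -0.06). Over all genes tested 7.22% were called, 3.83% of them higher in hypoxia, so 1 call in 10 is near that share. C-C motif chemokine 19 (110509876) averaged 2.79 ± 0.308 FPKM in hypoxia and 1.16 ± 0.245 FPKM in control (SD, n = 3 each, log2 fold change 1.25, edgeR adjusted p = 0.0297). It was called without control replicate 1 and missed the threshold without any 1 of the other 5 libraries (edgeR adjusted p of 0.0608 to 0.106). Of the 65 loci of that list 17 were listed at 0 in all 6 libraries, loci of the inflammatory genes il1b, tnf and nos2 and 1 il6 locus among them, while another il6 locus (100136689) was tested (log2 fold change 0.25, edgeR adjusted p = 0.36).

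**Figure D4:**
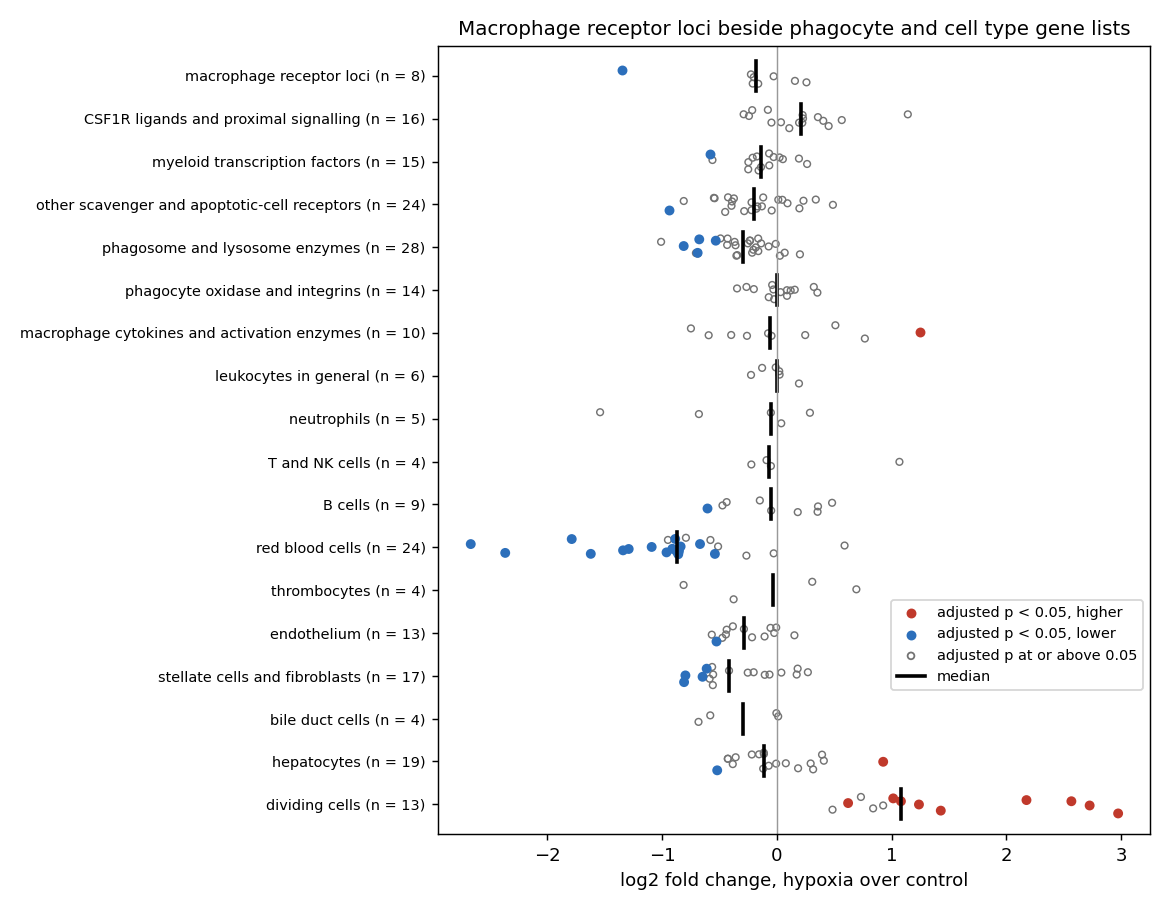
Log2 fold change of hypoxia over control (horizontal axis) of each tested gene, by list. Filled points passed an edgeR adjusted p of 0.05, open points did not, and the black bar is the list median. Among the macrophage receptor loci Marco is the filled point at -1.35, red blood cell genes lie mostly below 0 and dividing cell genes above 0.

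Blood cell markers were measured beside the macrophage loci. General leukocyte genes (0 of 6 called, median 0.006) summed to 10.3 to 11.7 FPKM in hypoxia and 9.92 to 12.7 FPKM in control, with cd53 the most abundant (log2 fold change -0.13, edgeR adjusted p = 0.769). Neutrophil genes (0 of 5) summed to 15.8 to 29.4 FPKM in hypoxia and 15.8 to 28.8 FPKM in control, led by MPO, with a CXCR1 and a CXCR2 locus at 0. MPO alone held 9.88 to 22.4 FPKM in hypoxia and 8.75 to 19.3 FPKM in control. The log2 fold changes were -1.54 for mmp9 (edgeR adjusted p = 0.0643) and -0.68 for mmp13 (edgeR adjusted p = 0.258). They were 0.29 for MPO, -0.05 for nccrp1 and 0.04 for csf3r. T and NK cell genes (0 of 4) summed to 24.1 to 26.2 FPKM in hypoxia and 23.3 to 25.4 FPKM in control, led by Prf1. Their log2 fold changes were 1.07 for LCK (edgeR adjusted p = 0.0936), -0.22 for cd4-1, -0.09 for cd3e and -0.05 for Prf1. B cell genes summed to 38.0 to 45.4 FPKM in hypoxia and 44.1 to 55.7 FPKM in control with a Pax5 locus at 0, and 1 of 9 fell, Blnk (-0.61, edgeR adjusted p = 0.037), called without control replicate 1 and not called without any 1 of the other 5 libraries (adjusted p of 0.099 to 0.121). Its other tested loci, 110526728 (-0.44, edgeR adjusted p = 0.0967) and 110525816 (-0.15, edgeR adjusted p = 0.741), were not called. Nor were cd79b (-0.47), CD79A (0.18) and the CD22 loci (0.48, 0.36, 0.36 and -0.05). The B cell list median was -0.05, with 11.1% called beside 7.22% of all genes tested. Thrombocyte genes (0 of 4) summed to 184 to 205 FPKM in hypoxia and 137 to 175 FPKM in control, nearly all from a Thbs1 locus described as properdin. Red blood cell genes summed to 651 to 903 FPKM in hypoxia and 1260 to 1745 FPKM in control. Of these, 17 of 24 fell (70.8% called, beside 3.39% of all genes tested called lower, median -0.86). All 17 are globin loci, among them hbb1 100301726 (-1.09), hba 110486354 (-1.29) and hba 110486351 (-2.66). The tested markers alas2 (-0.03, edgeR adjusted p = 0.96) and slc4a1 100136769 and 100136955 (-0.58 and -0.26, edgeR adjusted p of 0.157 and 0.467) were not called. In fits without 1 library 9 to 17 fell, with 9 without hypoxia replicate 3 and 9 without control replicate 3, where 203 and 230 of all genes tested were lower.

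Markers of other liver cells were counted in the same fit. Endothelial genes summed to 25.1 to 26.5 FPKM in hypoxia and 29.4 to 31.8 FPKM in control, with 1 of 13 lower, CDH5 (-0.53, edgeR adjusted p = 0.0441), called without control replicate 1 alone among the fits without 1 library, and not with limma (adjusted p of 0.0779 to 0.0805). Another tested CDH5 locus (110526277) was not called (-0.38, edgeR adjusted p = 0.116). The endothelial list had 7.69% called, beside 7.22% of all genes tested. Stellate cell and fibroblast genes summed to 181 to 260.4 FPKM in hypoxia and 265 to 346 FPKM in control, with 4 of 17 lower, all type I collagen loci and among them col1a2 (-0.80), col1a1 (-0.81) and COL1A1 (-0.65), of which limma called none (adjusted p of 0.0596 to 0.0822). That is 23.5% called, beside 3.39% of all genes tested called lower. The tested loci of other markers in this list were not called and went both ways. They were ACTA2 (-0.10 and 0.04), hand2 (-0.20 and 0.27), LRAT (-0.56 and 0.17), pdgfra (-0.58 and 0.18) and pdgfrb (-0.42, -0.25 and -0.06). The number lower in this list was 0, 0 and 5 without hypoxia replicates 1, 2 and 3, and 2, 0 and 2 without control replicates 1, 2 and 3. Over all genes tested, 127 to 1056 were lower in these fits, against 657 with all libraries. Bile duct genes (0 of 4) summed to 7.92 to 8.43 FPKM in hypoxia and 8.99 to 10.2 FPKM in control, led by SOX9, with 1 KRT19 locus at 0 and another (110485899) tested (-0.68, edgeR adjusted p = 0.0693). Hepatocyte genes had Fgg higher (0.93) and ambp lower (-0.52) of 19 tested, with Fgg not called without hypoxia replicate 1, hypoxia replicate 3 or control replicate 2 and ambp called without control replicate 1 alone and by limma at 1 of 3 pseudocounts (adjusted p of 0.0491 to 0.0576). Their other tested loci, FGG 110534419 (-0.07, edgeR adjusted p = 0.829) and AMBP 110523946 (0.08, edgeR adjusted p = 0.757), were not called. The hepatocyte list had 10.5% called, beside 7.22% of all genes tested. Dividing cell genes summed to 62.6 to 91.7 FPKM in hypoxia and 25.1 to 37.9 FPKM in control, with 9 of 13 higher, among them tyms (1.43), mcm5 (2.56) and mki67 (1.08). That is 69.2% called, beside 3.83% of all genes tested called higher. Without hypoxia replicate 3, 6 were higher, where the number higher over all genes tested moved from 741 to 229. These are changes of marker genes, and cell numbers were not measured. Whether they have any part in the fall of Marco was not tested.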

How the data were processed

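Liver was flash-frozen and its RNA taken up in Trizol, per the labels' protocols. The deposited RNA-seq table holds raw counts and FPKM per gene and library, per the file headers, with the authors' log2 fold change, p-value and adjusted p-value. The submitters' processing notes list Bowtie2 2.2.8 and TopHat2 2.1.1 without saying what each did, and the quantifier, genome build and strand setting of the counts were not given in the sources used here. All 41896 NCBI gene numbers matched the reference gene table, used for symbols and neighbours. The small RNA table was not used here.

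Counts were tested in R 4.3.3 with edgeR 4.0.16 (quasi-likelihood, TMM, group as the only term, two-sided, Benjamini-Hochberg over all genes with a mean of at least 0.5 FPKM, threshold 0.05, no fold minimum). The SE is the unshrunken log2 fold change over the square root of F. The exact permutation test used log2(FPKM + 0.5). Alternatives used DESeq2 1.42.0 and limma 3.58.1. Scripts were tested on simulated data. Replicates differed by more than counting noise (chi-square per degree of freedom 9.78 to 23.0), and each library was treated as 1 sample. That spread may be technical, so it does not show that the libraries came from separate fish. Same-numbered libraries were checked for pairing.

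Members and lists were chosen with earlier results of these data known. Named are all members past the threshold, the most abundant locus of each receptor, members of at least 1 FPKM whose groups do not overlap, and from each list up to 3 genes past the threshold or the most abundant one, with exceptions stated. List matches go by symbol or description, so a few are other genes.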

Additional observations from a re-analysis of the deposited data

How the results depend on the processing

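Marco kept its direction and its call in all 14 alternatives, at -1.45 to -0.90 on the log2 scale with adjusted p of 1.4e-05 (DESeq2) to 0.0348 (edgeR without hypoxia replicate 3). The fits on counts gave -1.45 to -1.26, and limma on log2 FPKM gave -1.27, -1.07 and -0.90 at pseudocounts of 0.1, 0.5 and 1 FPKM. At levels as low as those of Marco, a larger pseudocount shrinks the log2 difference. In the same 14 alternatives the other 7 tested loci had 0 calls among 95 results, each for 1 locus in 1 alternative. Of these 7 loci, csf1r1 (0.13 to 0.21), mpeg1.1 (-0.25 to -0.0682) and SPI1 110506649 (-0.37 to -0.0468) kept their direction in every alternative run, and 4 did not. MRC1 110508267 turned to 0.0475, 0.10 and 0.0231 with limma at pseudocounts of 0.5, 0.1 and 1 FPKM and to 0.0754 with the replicate block, and ran from -0.32 to 0.49 without 1 library. In fits without 1 library the log2 fold change ran from -0.40 to 0.0007 for SPI1 100136249, from -0.39 to 0.10 for marco 110520391 and from -0.0523 to 0.55 for Spi1 110521197. Among marker genes it ran from -0.14 to 0.0088 for Prf1, from -0.11 to 0.10 for SOX9 and from -0.23 to 0.0089 for cd53. The cause was not tested.

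Genes called numbered 1398 over all genes tested, against 826, 771 and 846 with limma at those pseudocounts, 1849 with no filter and 361 (without hypoxia replicate 1) to 2186 (without control replicate 1) without 1 library. With limma, at least 1 pseudocount ended the calls of cd209, Nr1h3, LAMP1, CDH5, ambp, col1a2, col1a1 and COL1A1. Calls in the phagocyte lists numbered 7, with 1 to 15 without 1 library, and calls in the cell type lists numbered 34, with 18 to 34. The neutrophil list had 1 lower without hypoxia replicate 3, the thrombocyte list 1 lower and the B cell list 1 higher without control replicate 2, and the hepatocyte list 3 lower without control replicate 1. A fit on 5 libraries has fewer residual degrees of freedom. Same-numbered libraries did not deviate together (correlations of -0.0552, 0.0636 and -0.0543), so the numbers were not taken to pair them. With the replicate block 1046 genes were called, and Marco was at -1.35 (edgeR adjusted p = 0.00896). The block ended the calls of C-C motif chemokine 19, Nr1h3, Blnk, CDH5, ambp and COL1A1 (adjusted p of 0.052, 0.0569, 0.0676, 0.0696, 0.0657 and 0.0577), and left 5 calls in the phagocyte lists, 0 of them higher, 25 in the cell type lists and 2 in the stellate list, against 7, 34 and 4 without it. Loci with few counts, such as Spi1 110521197 with 11 to 28 per library, allow only wide intervals.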
